A study of Mus musculus with 4 samples.

Results

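Cux1, Neurod2, Emx1, Dcx and Enc1 are 5 genes of the projection neurons of the cerebral cortex, the excitatory neurons that send axons out of their own area, and of the progenitors that make them. They were followed in the neocortex of mouse embryos that lack synaptic transmission. Each gene had 1 probe, so that the set comprised 5 of 6856 probes and 5 of 6041 genes named by a single symbol on the array. The genes were selected on their measured log ratios on these same arrays, without a numerical limit, so their values below are a description and no test is attached to them. All 5 probes had a value on all 4 arrays.

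The embryos were C57BL/6 mice of embryonic day 16. Each of 4 two-colour arrays held neocortical total RNA of 1 null mutant sample, described in the labels as synaptically silent, beside neocortical RNA of a pool of 4 normal replicates. The null RNA carried the dye Cy3 on replicate 1 and Cy5 on replicates 2, 3 and 4, and replicate 1 is called day 14 in its source name but day 16 elsewhere. The labels call the nulls biological replicates, the pool counts as 1 control sample, and the spread between controls is not measured.

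Each value was a log ratio between the channels of an array, read here on the log2 scale, so that a value of 1 is a 2-fold difference. Which channel was divided by which is not given in the sources used here. A negative value can therefore not be read as lower or as higher in the null, and signs are given as deposited throughout. Replicates 2, 3 and 4 share their dye orientation and hence their direction, and they carry the description. On these arrays a bias of a probe towards a dye cannot be told apart from a difference between null and pool. Ratios do not show how strongly a probe shone, so the labelled tissue could not be checked through the presence of its markers. In a piece of tissue, fewer cells of a type and less RNA per cell cannot be told apart.

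Projection neurons are born from dorsal progenitors that carry the homeobox factor Emx1. Their daughter cells switch on basic helix-loop-helix factors such as Neurod2, migrate outwards with the help of the microtubule-associated protein Dcx, and settle in layers, of which the upper ones are marked by the homeobox factor Cux1. Enc1, a kelch-repeat protein that binds actin, is abundant in developing cortical neurons.

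Upstream sequences from RefSeq (build GRCm38.p6) were at hand for 4 of the 5 genes, namely Cux1, Neurod2, Emx1 and Dcx. They are shown because the factors among the 5 genes bind DNA motifs that can be looked up there. The 250 bases before the start of transcription were searched for CANNTG, the E-box bound by factors of the Neurod family with their partners, for CCAAT, the box after which Cux1 received its older name CCAAT displacement protein, and for TAATTA, a core bound by many homeodomains. Both strands were read, and capitals below mark these motifs, which did not overlap. The windows of Neurod2 (chr11:98329646-98329895, minus strand) and Emx1 (chr6:85187681-85187930, plus strand) lay outside every gene in the RefSeq table. A stretch of 30 bases of the Dcx window (chrX:143933241-143933270, minus strand) is given around its TAATTA.
Neurod2: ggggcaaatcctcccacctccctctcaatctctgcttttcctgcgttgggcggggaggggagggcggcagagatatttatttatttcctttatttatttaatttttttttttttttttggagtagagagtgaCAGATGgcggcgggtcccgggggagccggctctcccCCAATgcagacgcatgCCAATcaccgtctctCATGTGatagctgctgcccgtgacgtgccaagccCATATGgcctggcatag
Emx1: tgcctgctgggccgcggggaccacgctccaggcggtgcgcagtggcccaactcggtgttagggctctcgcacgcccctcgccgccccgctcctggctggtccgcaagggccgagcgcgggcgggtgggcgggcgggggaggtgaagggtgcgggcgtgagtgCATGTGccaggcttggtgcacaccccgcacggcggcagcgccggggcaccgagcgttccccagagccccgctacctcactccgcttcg
Dcx: aaaaaaagcatgTAATTAatcataggaggt

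The Neurod2 window held 3 E-boxes, beginning 118, 51 and 17 bases before the start, and 2 CCAAT boxes, beginning 82 and 66 bases before it. The Emx1 window held 1 E-box at 88 bases and neither of the other motifs. The Dcx window, which lies partly within the gene because other Dcx transcripts start further out, held 1 CCAAT box at 196 bases and 1 TAATTA at 39 bases. The Cux1 window, which lies inside the Cux1 gene, held none of these letters. Of 32851 RefSeq windows of this length, 66.2% held CANNTG, 33.8% held CCAAT and 4.84% held TAATTA. The share of G and C was 75.6% in the Emx1 window, 62.8% for Cux1, 52.8% for Neurod2 and 41.6% for Dcx, beside a median of 52.4% over all windows. A match of letters is a description of the sequence and was not linked to the log ratios.

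On replicates 2, 3 and 4 the 3 transcription factors Cux1, Neurod2 and Emx1 were negative and the cytoskeletal genes Dcx and Enc1 positive. The 9 values of the factors ran from -0.97 to -0.15 and the 6 values of Dcx and Enc1 from 0.19 to 0.95, so the ranges did not overlap. Because the genes were picked with these values known, the split is a property of the choice. Over all 5720 probes measured on these arrays, 17.3% were negative on all 3 and 16.3% positive on all 3, and nothing is read from the 5 genes against those shares.

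**Figure D1:**
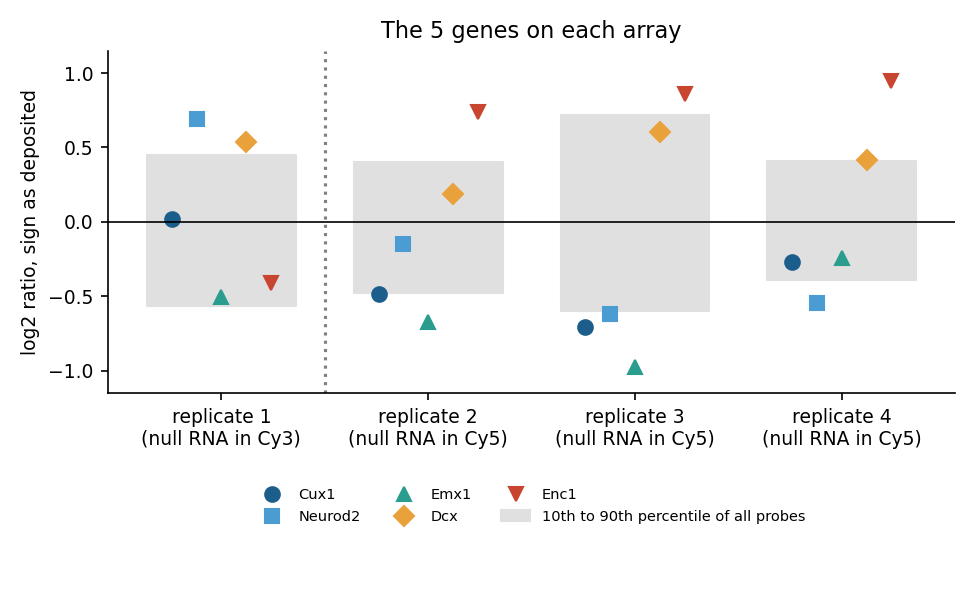
Log2 ratios of the 5 genes on each array, with the sign as deposited, beside the range from the 10th to the 90th percentile of all probes (grey). On replicates 2 to 4 Cux1, Neurod2 and Emx1 lie below 0 and Dcx and Enc1 above 0, whereas on replicate 1, with the dyes the other way round, Neurod2 is at 0.69 and Enc1 at -0.41.

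Emx1, which marks the dorsal telencephalon and its progenitors, had log ratios of -0.67, -0.97 and -0.24 on replicates 2, 3 and 4, and of -0.50 on replicate 1. It was below 0 on every array and furthest from 0 on replicate 3, the array with the widest spread over all probes. Its mean over replicates 2 to 4 was -0.63 ± 0.37 (SD, n = 3), a difference of 1.55-fold in size. On each array between 3.38% and 18.9% of the probes were lower.

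Cux1, a factor of upper-layer neurons, had log ratios of -0.48, -0.71 and -0.27 on replicates 2, 3 and 4, and of 0.02 on replicate 1. It was negative on the 3 arrays with null RNA in Cy5 and near 0 on the array with null RNA in Cy3, where 51.7% of the probes were lower. The mean over replicates 2 to 4 was -0.49 ± 0.22 (SD, n = 3), or 1.40-fold in size. The RefSeq table lists 22 transcripts for this gene, and the single probe does not tell them apart.

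Neurod2, a basic helix-loop-helix factor that drives the maturation of excitatory neurons, had log ratios of -0.15, -0.62 and -0.55 on replicates 2, 3 and 4, and of 0.69 on replicate 1. Replicate 2 was close to the middle of its array, with 35.8% of the probes lower, whereas 9.42% were lower on replicate 3 and 5.21% on replicate 4. On replicate 1 it stood near the top, above 97.0% of the probes. Its mean over replicates 2 to 4 was -0.44 ± 0.25 (SD, n = 3), or 1.36-fold in size.

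Dcx, or doublecortin, which binds microtubules in migrating young neurons, had log ratios of 0.19, 0.61 and 0.41 on replicates 2, 3 and 4, and of 0.53 on replicate 1. All 4 values were positive, and between 74.8% and 93.4% of the probes were lower. The mean over replicates 2 to 4 was 0.40 ± 0.21 (SD, n = 3), or 1.32-fold in size.

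Enc1, the kelch protein, had log ratios of 0.74, 0.86 and 0.95 on replicates 2, 3 and 4, and of -0.41 on replicate 1. The values of replicates 2 to 4 lay within 0.21 of each other, the narrowest range among the 5 genes, and replicate 1 had the opposite sign. The mean over replicates 2 to 4 was 0.85 ± 0.11 (SD, n = 3), or 1.80-fold in size, and 91 of the 5720 probes had a mean further from 0. Above it stood few probes: 97.9%, 93.4% and 99.0% of the probes on replicates 2, 3 and 4 were lower.

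**Figure D2:**
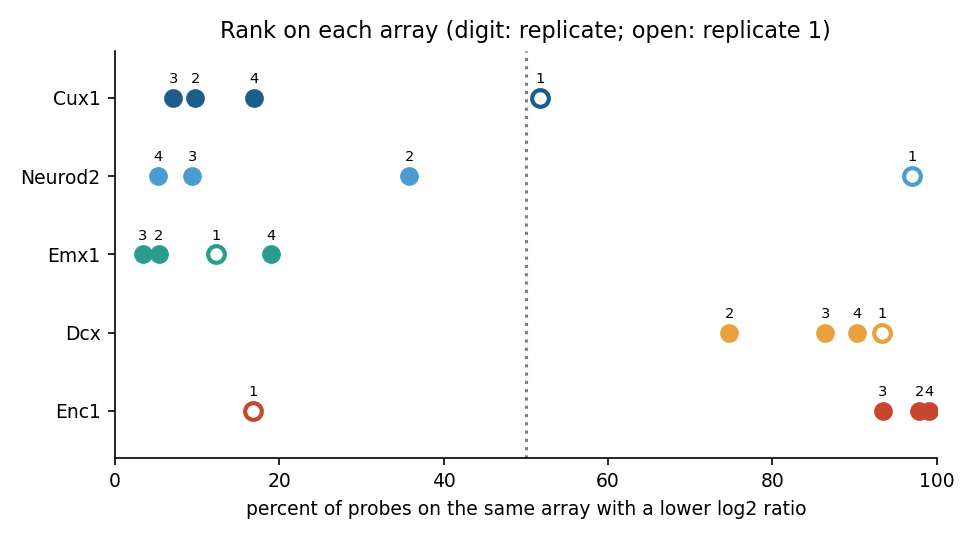
Rank of each gene on each array, as the percentage of probes on the same array with a lower log2 ratio; filled points are replicates 2 to 4 and open points replicate 1. Emx1 stays on the left and Dcx on the right on all 4 arrays, whereas replicate 1 lies across the middle from the other arrays for Neurod2 and Enc1.

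In the order of the means, Emx1, Cux1 and Neurod2 were not separated beyond the spread between arrays. The difference Cux1 minus Neurod2 was -0.05 ± 0.31 (SD, n = 3) and changed sign between arrays, as did Cux1 minus Emx1 at 0.14 ± 0.15 and Neurod2 minus Emx1 at 0.19 ± 0.44. Dcx was below Enc1 on replicates 2, 3 and 4, by 0.55, 0.25 and 0.54, and above it on replicate 1 by 0.94. Emx1 minus Enc1, the widest gap, was -1.48 ± 0.33 over replicates 2 to 4 and -0.10 on replicate 1.

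Replicate 1 divided the 5 genes in another way. As deposited, it had the sign of the other arrays for Emx1 and Dcx, and the opposite sign for Neurod2, Enc1 and, by a value near 0, Cux1. If the ratio ran from one dye to the other, replicate 1 has to be turned to match; if it ran from null to pool, it is kept. With replicate 1 turned, Cux1, Neurod2 and Enc1 had 1 sign on all 4 arrays, and Emx1 and Dcx on 3. With replicate 1 as deposited, the reverse held. Neither reading gave all 5 genes 1 sign on 4 arrays. Replicate 1 also differs in its dye order and in the day 14 of its source name, and their part was not tested. Over all 5687 probes measured on the 4 arrays, 18.1% had 1 sign after replicate 1 was turned, and 15.5% had 1 sign as deposited.

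With replicate 1 turned, the mean over 4 arrays was -0.50 ± 0.24 (SD, n = 4) for Neurod2 and 0.74 ± 0.24 for Enc1. For Cux1 it was -0.37 ± 0.29. The other two genes then had wide spreads, with -0.35 ± 0.64 for Emx1 and 0.17 ± 0.50 for Dcx. Leaving out a replicate took these means to values from -0.63 to -0.14 for Emx1 and from 0.02 to 0.40 for Dcx, each nearest to 0 without replicate 3 and furthest from it without replicate 1. The range was -0.49 to -0.26 for Cux1, -0.62 to -0.44 for Neurod2 and 0.67 to 0.85 for Enc1. With replicate 1 as deposited, Emx1 had -0.60 ± 0.31 and Dcx 0.44 ± 0.18, while Neurod2 had -0.16 ± 0.60, Enc1 0.53 ± 0.64 and Cux1 -0.36 ± 0.31. The sign of each mean was the same under both readings.

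**Figure D3:**
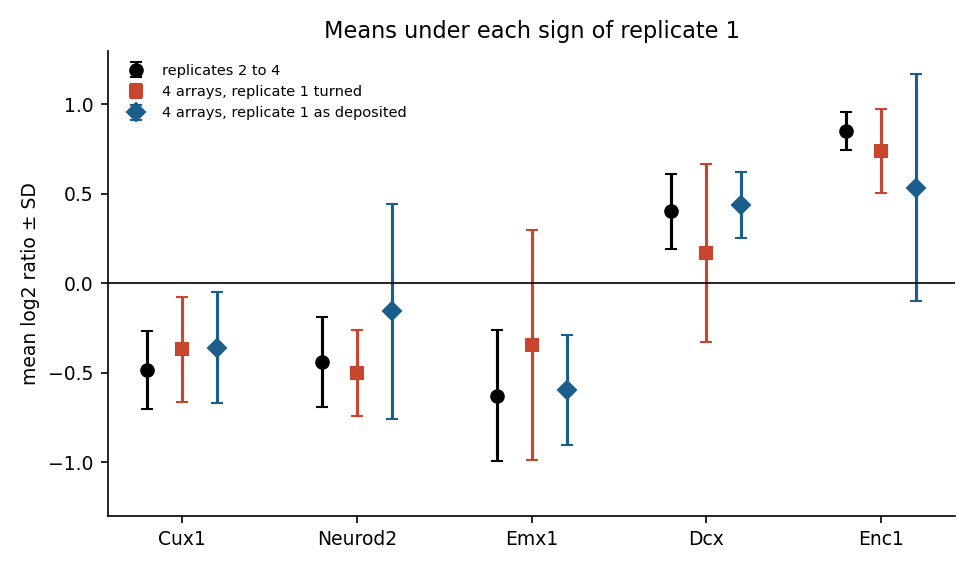
Mean log2 ratio and SD of each gene over replicates 2 to 4 (black, n = 3), over 4 arrays with replicate 1 turned (red) and over 4 arrays with replicate 1 as deposited (blue). The SD of Neurod2 and Enc1 is widest with replicate 1 as deposited, at 0.60 and 0.64, and that of Emx1 and Dcx with replicate 1 turned, at 0.64 and 0.50.

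The arrays set a frame for these values. The median of all probes lay between -0.03 and 0.0044, and the SD over probes was 0.40 to 0.63, widest on replicate 3. Across 5687 probes, the correlation (Pearson's r) ranged from -0.0022 to 0.24 among replicates 2, 3 and 4, and from -0.12 to 0.08 for replicate 1 with the others. These are correlations across probes, which share arrays and pool. Each of the 5 genes had a single probe, so agreement between probes of a gene could not be seen for them. Among 101 other genes with several probes, the median SD between probes of a gene was 0.16 for the mean over replicates 2 to 4. With limma, 0 of 5720 probes had an adjusted p under 0.05 on replicates 2 to 4 (0.0%), and 553 had an unadjusted p under that mark.

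Other genes with the same or related roles were taken from 7 lists. These covered layer factors, patterning factors, helix-loop-helix factors, young neuron proteins and relatives of Enc1 and Cux1. The helix-loop-helix list also held inhibitors and oligodendrocyte lineage factors, and the list around Enc1 held cullin 3 and targets. Of 176 listed genes, 112 were measured on replicates 2 to 4, and 107 of these were outside the 5. Among the 107, 56 had a negative mean and 51 a positive one, which is 52.3% negative, with a median of -0.02. Over all 5051 measured genes the share was 52.9% and the median -0.02. On all 3 arrays 16 of the 107 were negative and 16 positive, or 15.0% each, beside 17.3% and 16.3% of all genes. By list, those negative and positive on all 3 arrays were 3 and 2 of 14 upper-layer genes and 2 and 4 of 24 deep-layer genes. They were 5 and 1 of 14 patterning genes, 1 and 3 of 17 helix-loop-helix genes and 3 and 5 of 30 young neuron genes. Around Enc1 they were 2 and 2 of 8, and around Cux1 0 and 0 of 3. Some genes stood in several lists. With limma, 3 negative and 4 positive genes of the 107 had an unadjusted p under 0.05, beside 4.09% and 5.62% of all features after averaging by gene, and 0 had an adjusted p under 0.05 (0.0% of all).

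**Figure D4:**
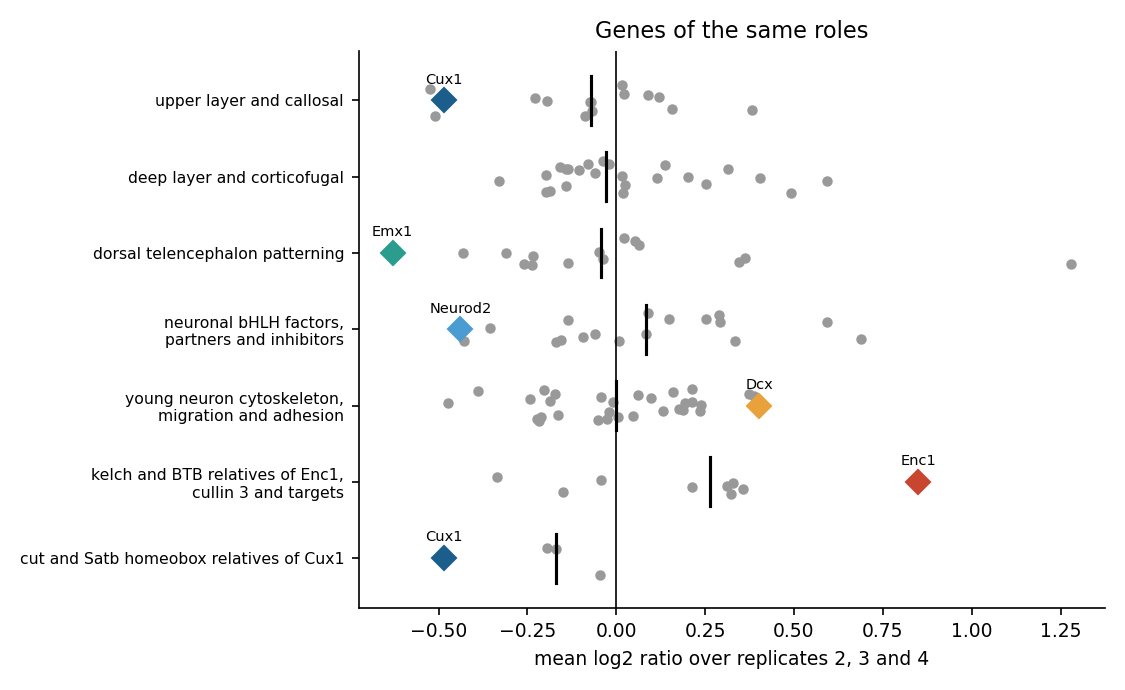
Mean log2 ratio over replicates 2 to 4 of the measured genes of each list (grey points), with the median of the genes outside the set (black bar) and the 5 genes as labelled diamonds. The list medians lie between -0.17 and 0.26, and the 5 genes lie further from 0 than the median of their lists.

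Upper-layer and callosal genes had 8 of 14 other members negative, with a median of -0.07. Pou3f2, a POU factor of upper-layer neurons, had -0.53, -0.43 and -0.62 on replicates 2, 3 and 4 and -0.83 on replicate 1. Its relative Pou3f3 had -0.44, -0.85 and -0.23, with -1.11 on replicate 1, so both were negative on every array, as Emx1 was. Without replicate 3 the mean of Pou3f3 over the others of replicates 2 to 4 was -0.34. Dkk3, a secreted protein related to Wnt antagonists, had 0.43, 0.27 and 0.45 on replicates 2, 3 and 4 and -0.44 on replicate 1, the same order of signs as Enc1. These 3 genes had a mean of -0.52 ± 0.10 (SD, n = 3), -0.51 ± 0.31 and 0.38 ± 0.10, and none passed limma's adjusted threshold, with adjusted p of 0.447, 0.460 and 0.488. Cux2, the closest relative of Cux1 and another upper-layer marker, had -0.45, 0.0049 and -0.15, with -0.09 on replicate 1. It was named for its kinship after its values were seen, and it was close to Cux1 on replicate 2 and nearer to 0 on replicates 3 and 4. The list of cut and Satb homeobox genes had 3 measured members besides Cux1, namely Cux2, Satb1 and Onecut1, with means of -0.20, -0.05 and -0.17 and no single sign on all 3 arrays.

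Deep-layer and corticofugal genes had 13 of 24 negative and a median of -0.03. Among the factors of these layers, 5 were named after their values were seen. Tbr1, the factor of corticothalamic neurons, had a mean of -0.06 ± 0.33 (SD, n = 3). Fezf2, which specifies subcerebral neurons, had -0.08 ± 0.16, and Bcl11b, another factor of those cells, had -0.10 ± 0.12. None of these 3 had 1 sign on replicates 2 to 4. Foxp2, a forkhead factor of corticothalamic neurons, had 0.31 ± 0.21 and Nfia, a nuclear factor I protein, had -0.33 ± 0.27, each with 1 sign on all 3 arrays. By the rule of size, the named genes were all positive. They were Id2, an inhibitor of helix-loop-helix factors, at 0.59 ± 0.63, Ldb2, a cofactor of LIM proteins, at 0.49 ± 0.24, and the receptor phosphatase Ptprk at 0.41 ± 0.24, with adjusted p of 0.527, 0.460 and 0.505 in limma. The mean of Id2 came mainly from replicate 3, at 1.32, the other values being 0.19 and 0.26, with a mean of 0.23.

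Among patterning genes of the dorsal telencephalon, 8 of 14 besides Emx1 were negative, with a median of -0.04. Emx2, the closest relative of Emx1, had no value on any array. Tcf7l2 and Lef1, which carry Wnt signals to DNA, had -0.43 ± 0.14 (SD, n = 3) and -0.26 ± 0.17, and the growth factor Fgf17 had 0.35 ± 0.17. Their adjusted p in limma was 0.460, 0.614 and 0.528. Pax6, a factor of the same progenitors as Emx1, had -0.05 ± 0.11, and Eomes, a factor of intermediate progenitors, had -0.24 ± 0.13. Both were named after their values were seen. Eomes was negative on replicates 2, 3 and 4, whereas Pax6 changed sign between them.

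The helix-loop-helix list had 7 of 17 negative besides Neurod2, with a median of 0.08. The relatives of Neurod2, named for kinship after their values were seen, were not negative on all 3 arrays, as Neurod2 was. Neurod6, found in the same neurons, had 0.18, 0.22 and 0.04 on replicates 2, 3 and 4, and 0.32 on replicate 1. Neurod1, which acts earlier in differentiation, had -0.08, 0.06 and 0.77, with 0.23 on replicate 1. Neurod4 had -0.17, 1.74 and 0.49, with 2.01 on replicate 1. Like Neurod2, these relatives were all positive on replicate 1 as deposited. By the rule of size the list named Id2 again, Id1, another inhibitor of these factors, at -0.36 ± 0.13 (SD, n = 3), and the oligodendrocyte lineage factor Olig1 at 0.29 ± 0.12. In limma the adjusted p of Id1 and Olig1 was 0.516 and 0.563.

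Proteins of young neurons, among them those of microtubules, migration and adhesion, had 15 of 30 negative besides Dcx and a median of -0.0020. Pafah1b1, or Lis1, which like Dcx is a lissencephaly gene, had 0.14, 0.96 and 0.02 on replicates 2, 3 and 4, so that its mean of 0.37 ± 0.51 (SD, n = 3) came from replicate 3. Vldlr, a reelin receptor, had 0.39 ± 0.13 and values of 0.25, 0.50 and 0.42. Map1b, a microtubule protein of growing axons, had -0.47 ± 0.47, and -0.24 without replicate 4. Without replicate 3 the mean of Pafah1b1 was 0.08. The adjusted p of the 3 genes in limma was 0.624, 0.488 and 0.535. Dclk1, a kinase with the doublecortin domains of Dcx, had -0.49, -0.43 and 0.27, with -0.52 on replicate 1, and was named for kinship after its values were seen.

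Of 32 genes listed around Enc1, 8 besides Enc1 were measured, 3 of them negative, with a median of 0.26. Rb1, the retinoblastoma protein to which Enc1 can bind, had 0.65, 0.12 and 0.21 on replicates 2, 3 and 4, with a mean of 0.33 ± 0.28 (SD, n = 3), and 0.16 without replicate 2. Sqstm1, an adaptor of autophagy, had -0.33 ± 0.35, and -0.15 without replicate 3, and the kelch protein Ivns1abp had 0.21 ± 0.12. The adjusted p was 0.571, 0.598 and 0.662 in limma. Cul3, the cullin that works with kelch proteins in ubiquitin ligases, had 0.57, -0.00043 and 0.40, and Klhl1, a brain kelch protein, had 1.08, -0.41 and 0.40. Both were named for kinship after their values were seen, and neither had 1 sign on all 3 arrays.

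The genes whose values over the 4 arrays lay nearest to each of the 5 were found by Euclidean distance among 5023 other genes, which always yields some nearest genes. Nearest to Cux1 were Nfix, a nuclear factor I protein, at a distance of 0.11, Bin1, a membrane-bending protein, and Nfe2l1, a stress-response factor, both at 0.14. The median distance of all genes from Cux1 was 1.05. Emx1 had Pcbp4 at 0.15, Purb at 0.15 and Pcsk1n at 0.25, against a median of 1.41. Of these, Pcbp4 binds RNA, Purb binds purine-rich nucleic acid and Pcsk1n encodes a secretory granule protein. Dcx had Rpp30, a ribonuclease P subunit, at 0.16, and Gabra2, a GABA receptor subunit, and Evi5, a regulator of cell division, at 0.19, against a median of 1.13. The nearest genes were further away for Neurod2, with the transporter Abcg2 at 0.22, the forkhead factor Foxc1 at 0.25 and Tcf7l2 at 0.30, against a median of 1.24. For Enc1 they were Tiparp at 0.33 and Il7 and Lep at 0.38, against a median of 1.68. Tiparp is an ADP-ribosyltransferase, and Il7 and Lep encode secreted signals. None of the 5 genes was among the nearest genes of another.

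**Figure D5:**
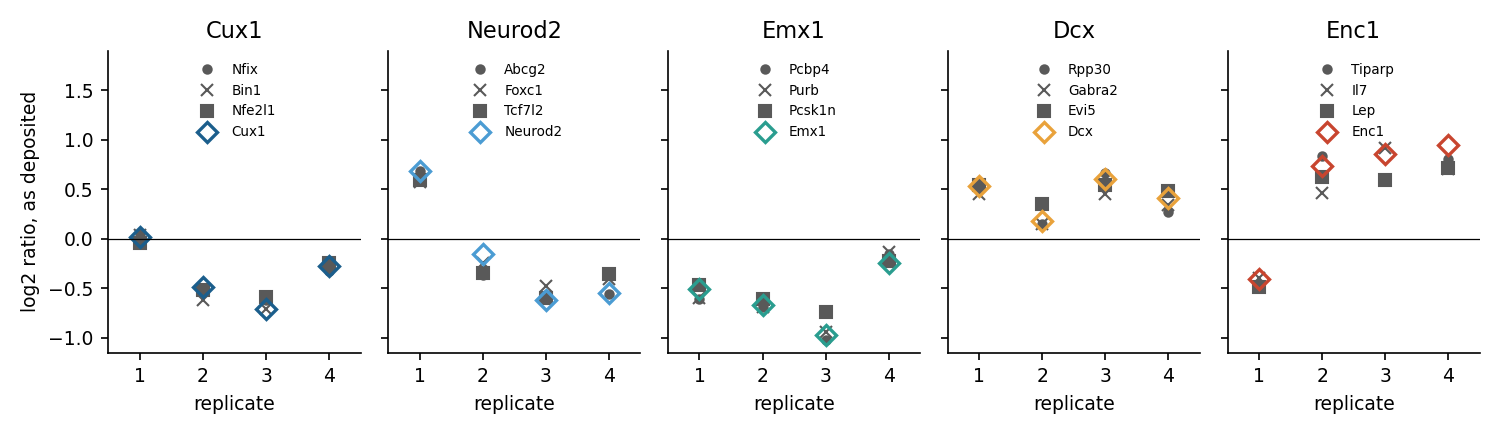
Log2 ratios as deposited of each of the 5 genes (open diamonds) and its 3 nearest genes (grey marks) on replicates 1 to 4. The marks lie close together for Cux1, at distances of 0.11 to 0.14, and furthest apart for Enc1, at 0.33 to 0.38.

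Markers of other cells that the dissection could hold, and of neurons and progenitors in general, also departed from 0. Their part in the values of the 5 genes was not tested. The neuronal and progenitor lists take in the cells of the 5 genes, and some genes, such as Pax6 and Eomes, are in a role list too. On replicates 2 to 4, interneuron markers had 10 of 14 negative, 5 of them on all 3 arrays, and 2 positive on all 3. Over all genes, 17.3% were negative and 16.3% positive on all 3 arrays. Gad2, which makes GABA, had 0.72 ± 0.22 (SD, n = 3) and the calcium-binding protein Calb1 -0.63 ± 0.53. General neuronal markers had 8 of 11 negative, 6 of them on all 3 arrays, and 1 positive on all 3, with Elavl3, a neuronal RNA-binding protein, at -0.32 ± 0.13 and the neurofilament Nefl at -0.26 ± 0.15. Progenitor markers had 12 of 19 negative, 6 on all 3 arrays, and 2 positive on all 3, with Ednrb, an endothelin receptor, at 0.80 ± 0.21 and the progenitor factor Sox3 at -0.62 ± 0.21. Cajal-Retzius markers had 5 of 7 negative, 2 on all 3 arrays, and 1 positive on all 3, with Ebf3 at 0.69 ± 0.42 and Ebf2 at -0.25 ± 0.10. Glial markers had 6 of 8 negative, 2 on all 3 arrays, and 1 positive on all 3, with the connexin Gja1 at -0.56 ± 0.33 and the glutamate transporter Slc1a2 at -0.43 ± 0.54. Without replicate 3 the mean of Slc1a2 was -0.13 and that of Ebf3 0.46, and without replicate 2 that of Calb1 was -0.33.

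Vessel markers had 10 of 14 negative with the median furthest below 0 among the marker lists, at -0.28, 6 on all 3 arrays and none positive on all 3, and included Sox17 at -1.41 ± 0.86 (SD, n = 3) and Sox18 at -0.48 ± 0.14. Markers of meninges and mesenchyme had 8 of 11 negative, 6 on all 3 arrays, and 1 positive on all 3, with the collagen gene Col6a1 at -2.20 ± 1.46 and Ptgds at -1.36 ± 0.62. Microglia and leukocyte markers had 2 of 11 negative, 1 on all 3 arrays, and 7 positive on all 3, with a median of 0.53 and with the protease Ctss at 0.90 ± 0.60 and Laptm5 at 0.87 ± 0.36. Blood markers had 4 of 6 negative, 2 on all 3 arrays, and 2 positive on all 3, with the embryonic globin Hba-x at -0.74 ± 0.17 and the factor Tal1 at 0.73 ± 0.27. Markers of the choroid plexus had 2 of 5 negative, both on all 3 arrays, and 2 positive on all 3, with Cldn2 at 1.27 ± 0.71 and Ttr at -0.68 ± 0.53. Striatal markers had 4 of 10 negative, 3 on all 3 arrays, and 2 positive on all 3, with Drd1 at -0.99 ± 1.42 and Ebf1 at -0.46 ± 0.32. Those of diencephalon and hypothalamus had 8 of 10 negative, 5 on all 3 arrays, and 1 positive on all 3, with Ghrh at 0.83 ± 0.57 and Tcf7l2 again. Without replicate 3 the mean was -0.18 for Drd1, -0.92 for Sox17 and 0.57 for Ctss, without replicate 2 it was -0.37 for Ttr, and without replicate 4 it was -0.30 for Ebf1. None of the marker genes named had an adjusted p under 0.05 in limma.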

How the data were processed

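Log ratios of 4 two-colour arrays were used, 1 column per array. The authors deposited log ratios of unstated base, read here as log2. Sizes reach 6.85, whereas log10 ratios of a 16-bit scanner end at 4.82 (the scanner's range is assumed, without background subtraction). That limit concerns log10 only. Natural logarithms are not excluded, and all fold sizes rest on the assumed base. Background correction, normalization and numerator are not stated in the labels or the file, and signal over background is unknown. A check of the mutated gene is not reported here.

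Symbols came from the platform annotation, which gave a single symbol for 6269 of 6856 probes, several for 6 and none for 581. Members and lists were chosen with earlier results of these data known. Probes of a gene were averaged. Mean log ratios of replicates 2 to 4 were tested against 0 with limma 3.58.1 (lmFit, eBayes; R 4.3.3), two-sided, adjusted by Benjamini-Hochberg over all probes, or over genes and unnamed probes after averaging. The fit was also run on simulated data. Those had independent probes, no dye bias and no shared pool, so the run cannot show how the fit performs on these arrays. P-values rest on the spread between arrays, which mixes that of the null samples with that of labelling and hybridization. The spread between controls is left out, and the number of arrays limits the precision.

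Named were up to 3 genes per role list and up to 2 per marker list with 1 sign on replicates 2 to 4 and the largest mean in size, and the 3 nearest genes. The 12 marker lists covered interneurons, progenitors, Cajal-Retzius cells, general neurons, glia, vessels, meninges, blood, microglia, choroid plexus, striatum and diencephalon. Alternatives were centring, a common SD, a missing value, the sign of replicate 1, array weights, a robust prior, averaging by gene, an adjusted p of 0.1 and leaving out each replicate.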

Additional observations from a re-analysis of the deposited data

Results flagged for a closer look

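For the 5 genes and the genes named from the lists, the gap from the highest or lowest of the 4 values to the nearest other was divided by the whole range, and large ratios are given here as a description. The usual rate of about 1 in 20 groups from chance does not apply, because the 5 genes were selected on these values and the listed genes on 1 sign on replicates 2 to 4, which favours a gap to replicate 1. Enc1 as deposited had a ratio of 0.846, with replicate 1 at -0.41 and the other arrays at 0.74 to 0.95.

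Tal1 had 0.899 as deposited and 0.855 with replicate 1 turned, from its value of -4.06 on replicate 1 as deposited. Drd1 had 0.866 as deposited, from -2.62 on replicate 3. With replicate 1 turned, Pou3f2 had 0.866 from replicate 1, Dkk3 had 0.926 from replicate 3 and Pafah1b1 had 0.870 from replicate 3.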

How the results depend on the processing

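The means of the 5 genes over replicates 2 to 4 kept their sign under every alternative run. For the median and for leaving out a replicate this was fixed in advance, since each gene had 1 sign on those replicates. Of 96 values over all results, 87 moved by less than the replicate SD or, for counts, by less than 1.5 times. That count is no measure of stability, because some alternatives could not differ. Each gene had 1 probe with complete values, so treating probes singly or allowing a missing value repeated the mean. Some means of 4 arrays were also counted under more than 1 result. The means of Neurod2 and Enc1 over replicates 2 to 4 moved further with 4 arrays and replicate 1 as deposited, to -0.16 and 0.53. Those of Dcx and Enc1 did so with replicate 1 turned, to 0.17 and 0.74. Compared with the mean of 4 arrays with replicate 1 turned, Neurod2 moved to -0.16 with it as deposited. Leaving out a replicate gave ranges of -0.59 to -0.38 for Cux1, -0.58 to -0.35 for Neurod2, -0.82 to -0.46 for Emx1, 0.30 to 0.51 for Dcx and 0.80 to 0.90 for Enc1. The number of probes past the adjusted threshold in limma was 0 without any one of replicates 2 to 4, 2 with 4 arrays as deposited, 1 with a robust prior, 3 with array weights and 1 at an adjusted p of 0.1. The 553 probes with an unadjusted p under 0.05 in limma became 1067 with array weights and 236 without replicate 2. Of the listed role genes, 54 were negative and 57 positive with 4 arrays and replicate 1 turned, and 66 and 45 with it as deposited, against 59 and 53. The cause of these shifts was not tested. No paired analysis was possible because all arrays form a single group. Signal over background is unknown.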
